A study of Mus musculus with 30 samples.

Results

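Transcripts of 10 genes that are known from the lung were followed through RNAseq libraries of mouse hearts. The genes were Scgb1a1, Scgb3a2 and Bpifa1 of the conducting airways, and Sftpc, Sftpb, Sftpa1, Slc34a2, Abca3, Chil1 and Cldn18 of the alveoli. All 10 were found by their Ensembl identifiers among the 37620 genes of the deposited tables. They had been picked because of their levels in these same libraries, so their levels and the differences between groups are given as descriptions without a test.

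Whole hearts of R6/2, HdhQ150 and wild type (WT) mice gave 30 libraries. R6/2 mice came from R6/2 males crossed with (CBA x C57BL/6) F1 females. HdhQ150 homozygotes had a (CBA x C57BL/6) F1 background, from a cross of heterozygotes of the congenic CBA/Ca and C57BL/6J lines. No separate breeding is given for WT mice. R6/2 mice are hemizygous for a transgene that encodes the first exon of mutant human HTT, and HdhQ150 mice carry an expanded CAG repeat on both copies of their own Htt gene, and in both lines the mutant gene is driven by the Htt promoter, so that the hearts are not its only site of expression. At 4 weeks and at 15 weeks of age there were 4 WT and 4 R6/2 hearts each, at 8 months 4 WT and 3 HdhQ150 hearts, and at 22 months 3 WT and 4 HdhQ150 hearts. The column headings number the mice, and mice are named here by those numbers, although no sample label carries them. The headings also hold an L code, which no label explains and which is read here as a sequencing lane. Whether libraries of a group came from separate dissections is not stated beyond these numbers, and the spread between them may in part be technical. In RNA of a whole organ, fewer cells of a type and less RNA per cell cannot be told apart.

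The conducting airways are lined by ciliated cells and by club cells, which secrete Scgb1a1 and its relative Scgb3a2 in large amounts, whereas Bpifa1 is secreted in the nose and the large airways. In the alveoli, type 2 cells make surfactant, the film of lipids and proteins that keeps air spaces open, and flat type 1 cells form the surface for gas exchange.

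The libraries were rich in transcripts of heart muscle. The summed level of 7 ventricular cardiomyocyte genes (Myl2, Myh6, Myl3, Tnni3, Tnnt2, Actc1 and Ryr2) ran from 33168 to 58834 counts per 1000000 counts of a library (CPM), and the total counts ran from 33718139 to 62127770 per library. At these depths a count of 0 allows a level of up to 0.0483 to 0.0890 CPM, set at 3 counts of the library's total. Some libraries stood apart in other ways. The summed level of 8 thymocyte genes had a median of 1.23 CPM over all 30 libraries. It was 1019 and 852 CPM in WT mice 1 and 2 at 15 weeks. In WT mice 12 and 13 at 4 weeks it was 133 and 126 CPM. Among these genes, Rag1 stood at 302, 243, 44.1 and 59.6 CPM in WT mice 1, 2, 12 and 13. Dntt stood at 250, 232, 32.2 and 25.1 CPM in the same mice. HdhQ150 mouse 31 had a sum of 165 CPM of another make-up. Nearly all of it was Cd8b1, Cd3e and Themis, with Rag1 at 0 and Dntt at 0.0658 CPM. HdhQ150 mouse 31 also had 841 CPM of 5 B cell genes, against a median of 23.7 CPM, and the study left this mouse out of its group means.

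Promoter windows of 300 bases, from 250 bases before to 50 after the start of a gene, were available from RefSeq (build GRCm38.p6, which is not the build of the deposited tables) for 7 of the 10 genes. The windows of 3 genes are shown because they hold the letters CTCAAG, the core that the lung and thyroid factor NKX2-1 is known to bind. That of Abca3 is shown as an example of those that hold none. Capitals mark CTCAAG, or CTTGAG where it lies on the other strand. The windows lie at chr2:154142630-154142929 for Bpifa1, chr6:72304360-72304659 for Sftpb, chr14:41131538-41131837 for Sftpa1 and chr17:24351773-24352072 for Abca3, all on the plus strand.
Bpifa1: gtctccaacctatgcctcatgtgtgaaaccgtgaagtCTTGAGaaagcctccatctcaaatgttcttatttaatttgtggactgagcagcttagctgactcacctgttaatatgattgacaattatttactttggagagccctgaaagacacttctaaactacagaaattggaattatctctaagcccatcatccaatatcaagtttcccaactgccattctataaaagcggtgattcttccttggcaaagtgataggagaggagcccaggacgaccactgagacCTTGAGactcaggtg
Sftpb: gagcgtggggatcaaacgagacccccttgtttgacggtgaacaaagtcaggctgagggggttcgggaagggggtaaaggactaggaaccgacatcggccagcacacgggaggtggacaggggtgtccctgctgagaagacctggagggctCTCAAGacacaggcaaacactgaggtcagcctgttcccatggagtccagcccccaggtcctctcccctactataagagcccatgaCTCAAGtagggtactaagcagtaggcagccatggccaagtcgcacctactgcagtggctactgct
Sftpa1: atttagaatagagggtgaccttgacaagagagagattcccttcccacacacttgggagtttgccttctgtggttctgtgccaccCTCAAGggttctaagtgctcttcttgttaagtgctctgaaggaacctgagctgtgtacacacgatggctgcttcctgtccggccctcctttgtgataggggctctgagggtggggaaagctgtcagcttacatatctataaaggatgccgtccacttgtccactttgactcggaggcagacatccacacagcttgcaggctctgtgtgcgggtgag
Abca3: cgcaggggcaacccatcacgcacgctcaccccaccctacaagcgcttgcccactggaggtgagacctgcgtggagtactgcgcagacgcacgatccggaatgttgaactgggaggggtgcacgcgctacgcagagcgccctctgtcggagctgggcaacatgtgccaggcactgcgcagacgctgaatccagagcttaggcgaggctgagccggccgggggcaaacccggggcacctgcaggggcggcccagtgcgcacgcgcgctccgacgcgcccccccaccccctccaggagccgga
CTCAAG began 213 bases upstream and 36 bases downstream of the Bpifa1 start on the minus strand, 100 and 15 bases upstream of the Sftpb start, and 166 bases upstream of the Sftpa1 start on the plus strand. Searched on both strands, it was present in 15.9% of 32851 promoter windows of all genes, so that a match is common. The TATA box letters TATAAA, present in 13.62% of all windows, lay 29 bases upstream of the start in Bpifa1 and 30 bases upstream in Sftpa1. The FOXA core TGTTTAC, present in 3.65% of all windows, was in none of the members' 8 windows, which include a pair for Cldn18. None of the 3 motifs was in the windows of Slc34a2, Abca3, Chil1 and Cldn18. These matches are letters in a window and not sites of binding.

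Scgb1a1, the main secreted protein of club cells, varied most widely in CPM of all members. At 4 weeks it stood at 1.63, 0.0505, 154 and 0.0451 CPM in WT mice 10, 11, 12 and 13, and at 270, 39.1, 17.9 and 0.185 CPM in R6/2 mice 9, 14, 15 and 16. At 15 weeks the level was 5.62, 13.2, 0.209 and 13.8 CPM in WT mice 1 to 4, and 564, 0.593, 282 and 3513 CPM in R6/2 mice 5 to 8. High and low libraries were thus present in both genotypes at 4 weeks and the groups overlapped at both ages, with R6/2 mouse 6 among the WT values. At 8 months Scgb1a1 stood between 0 and 0.0800 CPM in the 4 WT libraries, and at 0.138, 0 and 415 CPM in HdhQ150 mice 22, 23 and 24. At 22 months it was 18.7, 0.247 and 0 CPM in WT mice 26, 27 and 28, and 0.0447, 0.365, 476 and 215 CPM in HdhQ150 mice 29 to 32. The HdhQ150 libraries divided into those under 1 CPM and those over 200 CPM at both ages, with none between. Over all 30 libraries, 15 were at or above 1 CPM, 13 at or above 10 CPM and 8 at or above 100 CPM.

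**Figure D1:**
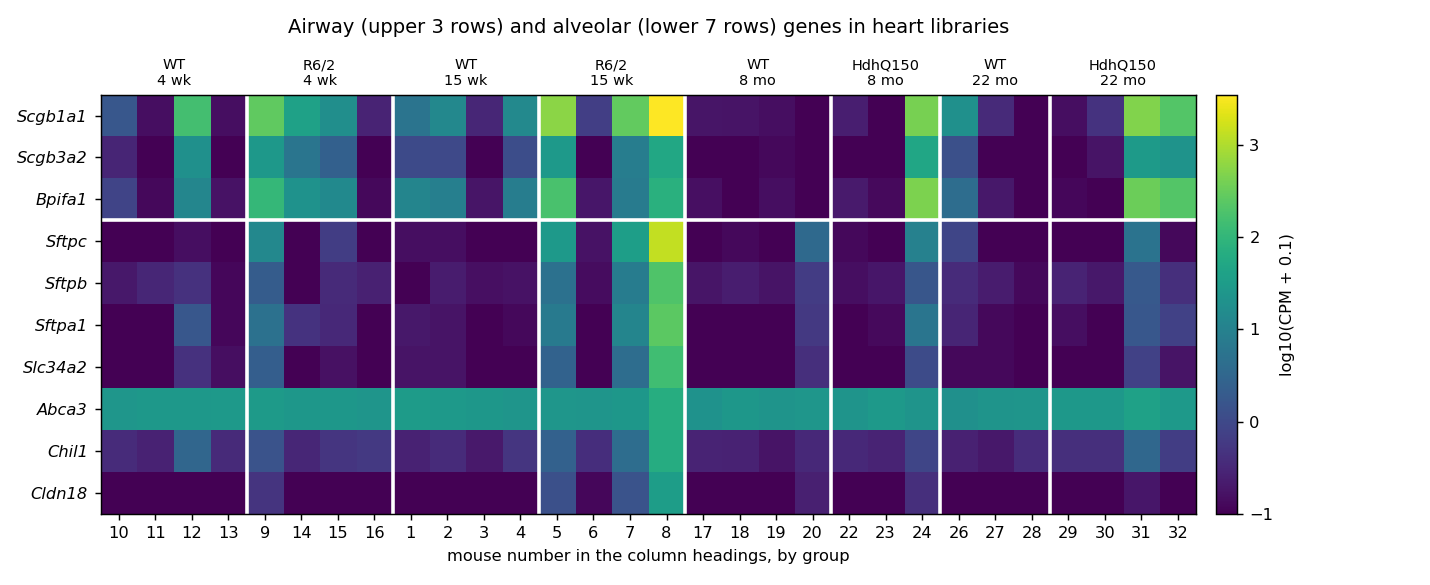
Level of each gene (rows) in each library (columns, by mouse number and group), as log10(CPM + 0.1) in colour. Scgb1a1, Scgb3a2 and Bpifa1 are bright in the same columns, the surfactant genes are brightest in R6/2 mouse 8 at 15 weeks, and Abca3 is near one level throughout, from 19.3 to 67.0 CPM.

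Scgb3a2, another secretoglobin of the same cells, followed Scgb1a1 at a lower level. It reached 10 CPM in 7 libraries, namely 19.4 CPM in WT mouse 12 beside 26.4 CPM in R6/2 mouse 9 at 4 weeks, 28.8 and 53.9 CPM in R6/2 mice 5 and 8 at 15 weeks, 49.2 CPM in HdhQ150 mouse 24 at 8 months, and 29.3 and 21.3 CPM in HdhQ150 mice 31 and 32 at 22 months. These are 7 of the 8 libraries in which Scgb1a1 was at or above 100 CPM, and the remaining one, R6/2 mouse 7, had 8.26 CPM of Scgb3a2. No library reached 100 CPM.

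Bpifa1, an antimicrobial and surface-active protein of the nose and large airways, was high in another order. It peaked at 440 CPM in HdhQ150 mouse 24 and 333 CPM in HdhQ150 mouse 31, ahead of 212 CPM in HdhQ150 mouse 32, 172 CPM in R6/2 mouse 5 and 105 CPM in R6/2 mouse 9. R6/2 mouse 8, the library with the most Scgb1a1, had 76.3 CPM of Bpifa1, and R6/2 mouse 7 had 7.54 CPM. WT mice 1, 2 and 4 at 15 weeks had 11.8, 9.02 and 8.46 CPM, against 0.0785 CPM in WT mouse 3. The WT libraries at 8 months were at 0 to 0.0533 CPM.

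The share of Bpifa1 in the counts of Scgb1a1 and Bpifa1 together makes this plain, and it is compared only between libraries because the genes differ in length. Over the 16 libraries with at least 20 counts of the pair it ran from 2.13% (exact 95% binomial interval 2.07% to 2.19%) in R6/2 mouse 8 to 67.7% (64.1% to 71.1%) in WT mouse 1, with a median of 33.1%. The share was 2.60% in R6/2 mouse 7 and 7.29% in WT mouse 12, and 51.5%, 41.1% and 49.7% in HdhQ150 mice 24, 31 and 32. These intervals cover counting error only, since reads without molecular identifiers are not independent molecules. The intervals of R6/2 mouse 8 and WT mouse 1 did not overlap, and what part of such differences is spread between hearts was not tested. The share of Scgb3a2 beside Scgb1a1 was narrower, from 0% in R6/2 mouse 6 (interval up to 12.3%) to 14.6% in WT mouse 1, with 1.51% in R6/2 mouse 8.

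Sftpc, the surfactant protein made by alveolar type 2 cells alone, was close to absent from most libraries. It was at or above 1 CPM in 7 of 30 libraries and at 0 in 14. R6/2 mice 5, 7 and 8 at 15 weeks had 27.4, 35.1 and 1332 CPM, and R6/2 mouse 6 had 0.0635 CPM, while the 4 WT libraries of that age were between 0 and 0.0490 CPM. At 4 weeks R6/2 mouse 9 had 13.1 CPM and the other 7 libraries between 0 and 0.569 CPM. HdhQ150 mice 24 and 31 had 9.82 and 5.26 CPM. HdhQ150 mouse 32, which was rich in airway transcripts, had 0.0243 CPM, a single count.

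WT mouse 20 at 8 months was the reverse case. Its library held 3.53 CPM of Sftpc (185 counts), 0.534 CPM of Sftpb, 0.477 CPM of Sftpa1, 0.305 CPM of Slc34a2 and 0.153 CPM of Cldn18, but 0 counts of Scgb1a1, Scgb3a2 and Bpifa1. In Sftpc and Scgb1a1 counts together, Sftpc made up 100% in this library (exact interval 98.0% to 100%). In the other 16 libraries with at least 20 such counts the share of Sftpc ran from 0% to 27.5%, and the highest was R6/2 mouse 8. In WT mouse 12, whose library had 6177 counts of Scgb1a1, only 2 were of Sftpc.

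**Figure D2:**
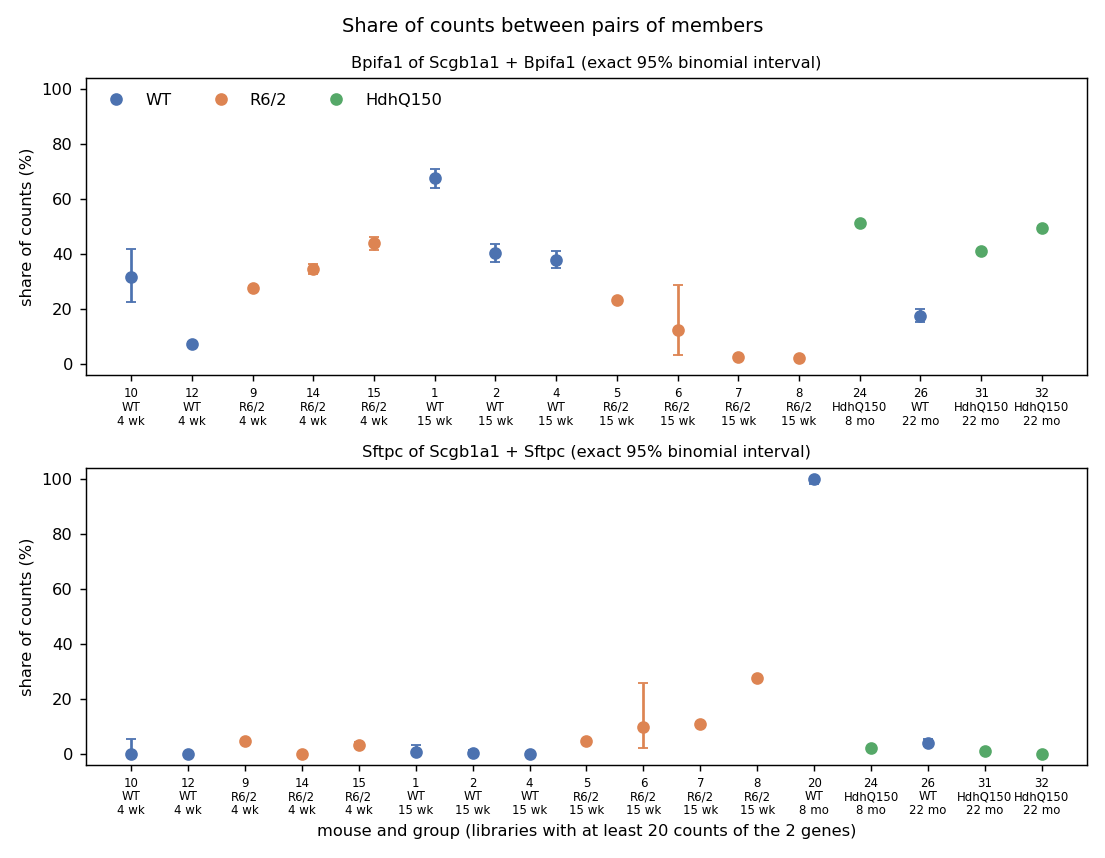
Share of Bpifa1 in the counts of Scgb1a1 and Bpifa1 (upper panel) and of Sftpc in those of Scgb1a1 and Sftpc (lower panel), in percent with exact 95% binomial intervals, for each library with at least 20 counts of the pair, coloured by genotype. The Bpifa1 share is lowest in R6/2 mice 7 and 8 and highest in WT mouse 1, and the Sftpc share is 100% in WT mouse 20.

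Sftpb, a surfactant protein that spreads the lipid film, and Sftpa1, a collectin of innate defence, are both also made by club cells. Sftpb was 198 CPM in R6/2 mouse 8, 7.86 CPM in mouse 7, 4.83 CPM in mouse 5 and 2.04 CPM in R6/2 mouse 9, and under 2 CPM in all other libraries. Sftpa1 was 248, 11.6 and 7.49 CPM in R6/2 mice 8, 7 and 5, and 5.81 CPM in HdhQ150 mouse 24. Sftpb made up 12.9% of the joint counts of Sftpb and Sftpc in R6/2 mouse 8 (exact interval 12.7% to 13.1%), 18.3% in R6/2 mouse 7 (16.5% to 20.2%) and 25.2% in HdhQ150 mouse 31 (20.6% to 30.4%), and at most 30.2% in the 9 libraries with enough counts. That of Sftpa1 to Sftpc ran from 11.9% in WT mouse 20 to 96.4% in HdhQ150 mouse 32 and 97.1% in WT mouse 12, the libraries with many club cell transcripts and almost no Sftpc. In 9 of 11 libraries it lay between 11.9% and 37.2%.

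Slc34a2, the phosphate transporter of type 2 cells, and Cldn18, a tight junction protein of the alveolar epithelium, were the least widespread members. Slc34a2 was 142 CPM in R6/2 mouse 8, 4.12 CPM in mouse 7, 2.63 CPM in mouse 5 and 2.20 CPM in R6/2 mouse 9, and under 1 CPM elsewhere, with 15 libraries at 0. Cldn18 was 33.4, 1.37 and 1.21 CPM in R6/2 mice 8, 7 and 5, and 22 libraries were at 0. Chil1, a chitinase-like protein that macrophages also secrete, was detected in all 30 libraries. It stood at 66.4 CPM in R6/2 mouse 8, between 1.37 and 4.09 CPM in R6/2 mice 5, 7 and 9, WT mouse 12 and HdhQ150 mouse 31, and under 1 CPM in the others.

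Abca3, the lipid pump that fills the storage bodies of type 2 cells, did not vary like the other members. Its level was 19.3 CPM or more in every library, with a median of 25.1 CPM, and it made up 3.21% of the summed CPM of the 7 alveolar genes in R6/2 mouse 8 and up to 99.4% in other libraries. It exceeded 31 CPM only in R6/2 mouse 8 (67.0 CPM) and HdhQ150 mouse 31 (39.9 CPM). Because a sum with Abca3 follows this steady level, the sum of the other 6 alveolar genes was added after seeing the data, and is named as such.

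Levels of different genes can be set side by side per kilobase. In R6/2 mouse 8 the deposited FPKM values were 7380 for Scgb1a1, 1657 for Sftpc, 185 for Sftpa1, 175 for Sftpb, 93.3 for Scgb3a2, 69.1 for Bpifa1, 45.1 for Chil1, 34.3 for Slc34a2, 11.8 for Abca3 and 8.61 for Cldn18. In HdhQ150 mouse 24 the order was different, with 871 FPKM for Scgb1a1, 400 FPKM for Bpifa1, 85.5 FPKM for Scgb3a2 and only 12.2 FPKM for Sftpc. Median FPKM over the 30 libraries was highest for Abca3 at 4.27, followed by Scgb1a1 at 2.33.

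Across the 30 libraries the 3 airway genes varied together, with a Spearman rho of CPM of 0.924 between Scgb1a1 and Scgb3a2, 0.895 between Scgb1a1 and Bpifa1 and 0.874 between Scgb3a2 and Bpifa1. Among Sftpc, Sftpb, Sftpa1, Slc34a2 and Cldn18, rho ran from 0.659 to 0.894 with a median of 0.716, and the highest pair was Sftpa1 with Slc34a2. Between these 5 and the 3 airway genes rho ran from 0.390, for Bpifa1 with Sftpb, to 0.810, for Scgb3a2 with Sftpa1, with a median of 0.675. The 9 pairs with Abca3 had values from 0.154 to 0.392, and Chil1 had values from 0.512 to 0.655 with the other 8. Values within a library share its RNA and depth, and these correlations are descriptions.

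The airway sum had a Spearman rho of 0.536 with the alveolar sum of 7 genes and 0.727 with the alveolar sum without Abca3. With CPM scaled by TMM factors the first value was 0.27, and in FPKM it was 0.632. The airway sum ran from 0 CPM in WT mice 20 and 28 to 3643 CPM in R6/2 mouse 8. Ranked by log2(CPM + 0.1), the largest step between neighbouring libraries was 2.79, with 16 libraries below it and 14 above. The alveolar sum without Abca3 ran from 0.151 to 2020 CPM, and its largest step, of 4.97, separated R6/2 mouse 8 from the other 29. HdhQ150 mouse 32 had an airway sum of 449 CPM beside an alveolar sum without Abca3 of 1.63 CPM, while R6/2 mouse 7 had 298 CPM beside 64.1 CPM.

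**Figure D3:**
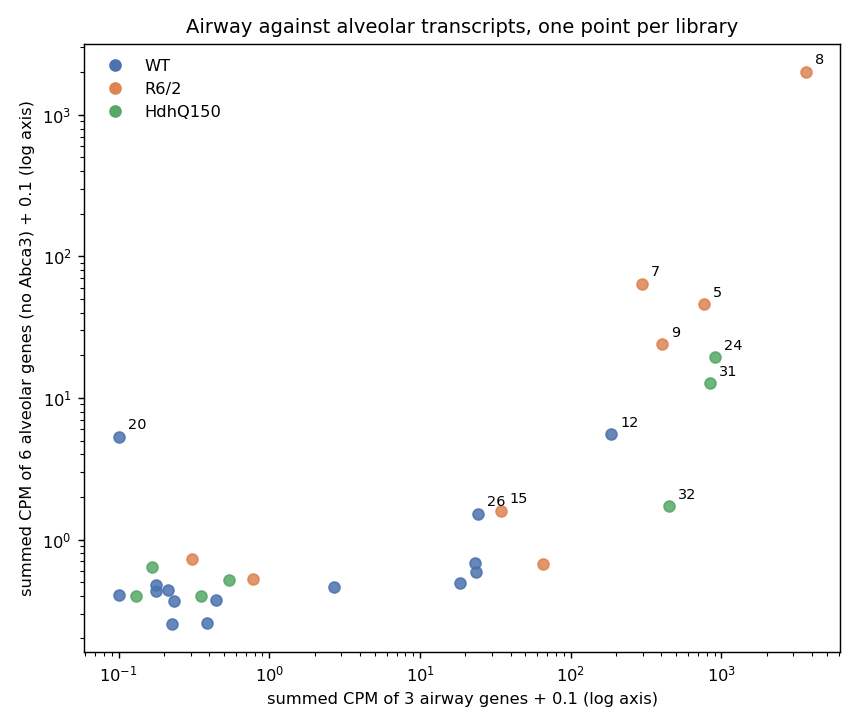
Summed CPM of the 3 airway genes (horizontal) against that of the 6 alveolar genes other than Abca3 (vertical), both plus 0.1 on log axes, a point for each library coloured by genotype, with mouse numbers on the libraries with most lung transcripts. Mouse 20 lies at the left edge, above the other libraries with few airway transcripts. Mouse 32 lies low at the right, and mouse 8 lies at the top right with 3643 and 2020 CPM.

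The headings give an L code for each library, which is read here as a sequencing lane although no label says so. Airway sums ran from 0 to 449 CPM in lane 1, from 0.208 to 765 CPM in lane 5 and from 0.133 to 839 CPM in lane 6. All 4 libraries of lane 7, from WT and HD mice, were at or under 0.678 CPM, and the 3 libraries of lane 8, at 34.2 to 3643 CPM, were R6/2 mice 8 and 15 and HdhQ150 mouse 24, with no WT library among them. Each lane held 3 to 5 libraries, too few for a value within a lane, and the part of the lane was not tested. The study's methods speak of 4-plexing, whereas 5 libraries carry the code of lane 1, so the code may not be the lane.

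The headings also give the sex of the mice. Airway sums ran from 0 to 765 CPM in 14 females, with a median of 0.391 CPM, and from 0 to 3643 CPM in 16 males, with a median of 23.7 CPM. At 22 months the HdhQ150 females 29 and 30 had 0.0670 and 0.438 CPM and the males 31 and 32 had 839 and 449 CPM, and at 4 weeks the R6/2 males 9 and 14 (401 and 65.6 CPM) stood above the females 15 and 16 (34.2 and 0.208 CPM). Females with high sums were WT mouse 12 at 4 weeks (186 CPM) and R6/2 mouse 5 at 15 weeks (765 CPM). Groups held 1 or 2 mice of a sex, and the part of sex was not tested.

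Genes of the lung that are no members were then taken from marker lists, which had also been drawn up with earlier results of these data known. Their summed CPM was set against the airway and alveolar sums as log2(CPM + 0.1) over the 30 libraries. Since the sums are made of the values on which the members were chosen, these relations are descriptions, given without a test. The airway sum varied with the 11 airway secretory genes, with a Pearson r of 0.910 and a Spearman rho of 0.793, and with the 13 ciliated cell genes, with an r of 0.910 and a rho of 0.771. Without HdhQ150 mouse 24 and R6/2 mouse 8, the 2 libraries farthest from the median, r was 0.888 and 0.901.

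The 14 libraries above the step in the airway sum and the 16 below it were also taken apart, a split made on the sum itself after seeing the data. Above it, r was 0.982 and rho 0.969 for airway secretory genes, and 0.977 and 0.930 for ciliated cell genes. For the alveolar type 2 list r was 0.832 and rho 0.798, and for alveolar type 1 cells, alveolar macrophages and lung mesenchyme r was 0.691, 0.614 and 0.634. Below the step r was -0.199 for airway secretory genes and -0.111 for ciliated cell genes, where the airway sum spans few counts.

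Within ages the values rest on 7 or 8 libraries each. For airway secretory and ciliated cell genes r was 0.857 and 0.907 at 4 weeks, with a rho of 0.833 and 0.786, and 0.924 and 0.931 at 15 weeks, with a rho of 0.976 and 0.905. At 22 months r was 0.938 and 0.890, with a rho of 0.893 and 0.786. At 8 months r was 0.962 and 0.972 while rho was 0.107 and -0.214, and HdhQ150 mouse 24 was the only library with an airway sum above 1 CPM.

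The single genes show what these lists held. Scgb3a1, a secretoglobin of the large airways, was 61.1 CPM in HdhQ150 mouse 31, 52.9 CPM in R6/2 mouse 8 and 43.3 CPM in HdhQ150 mouse 24, against a median of 0.559 CPM. Cyp2f2, a monooxygenase of club cells, was 387 CPM in R6/2 mouse 8 and 97.4 CPM in R6/2 mouse 5, against a median of 0.568 CPM. Foxj1, the master regulator of motile cilia, was 14.8 CPM in R6/2 mouse 8, 6.51 CPM in HdhQ150 mouse 31 and 0.0191 CPM in WT mouse 20. Sec14l3, a gene of ciliated cells, was 106 CPM in R6/2 mouse 8, 22.6 CPM in HdhQ150 mouse 24 and 20.4 CPM in R6/2 mouse 5. The gel-forming mucin Muc5b peaked at 14.1 CPM in HdhQ150 mouse 24 and was 4.78 CPM in R6/2 mouse 8. WT mouse 12 had the most of Muc5ac, at 2.72 CPM against at most 0.170 CPM elsewhere, and of Reg3g, an antimicrobial lectin, at 36.7 CPM.

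**Figure D4:**
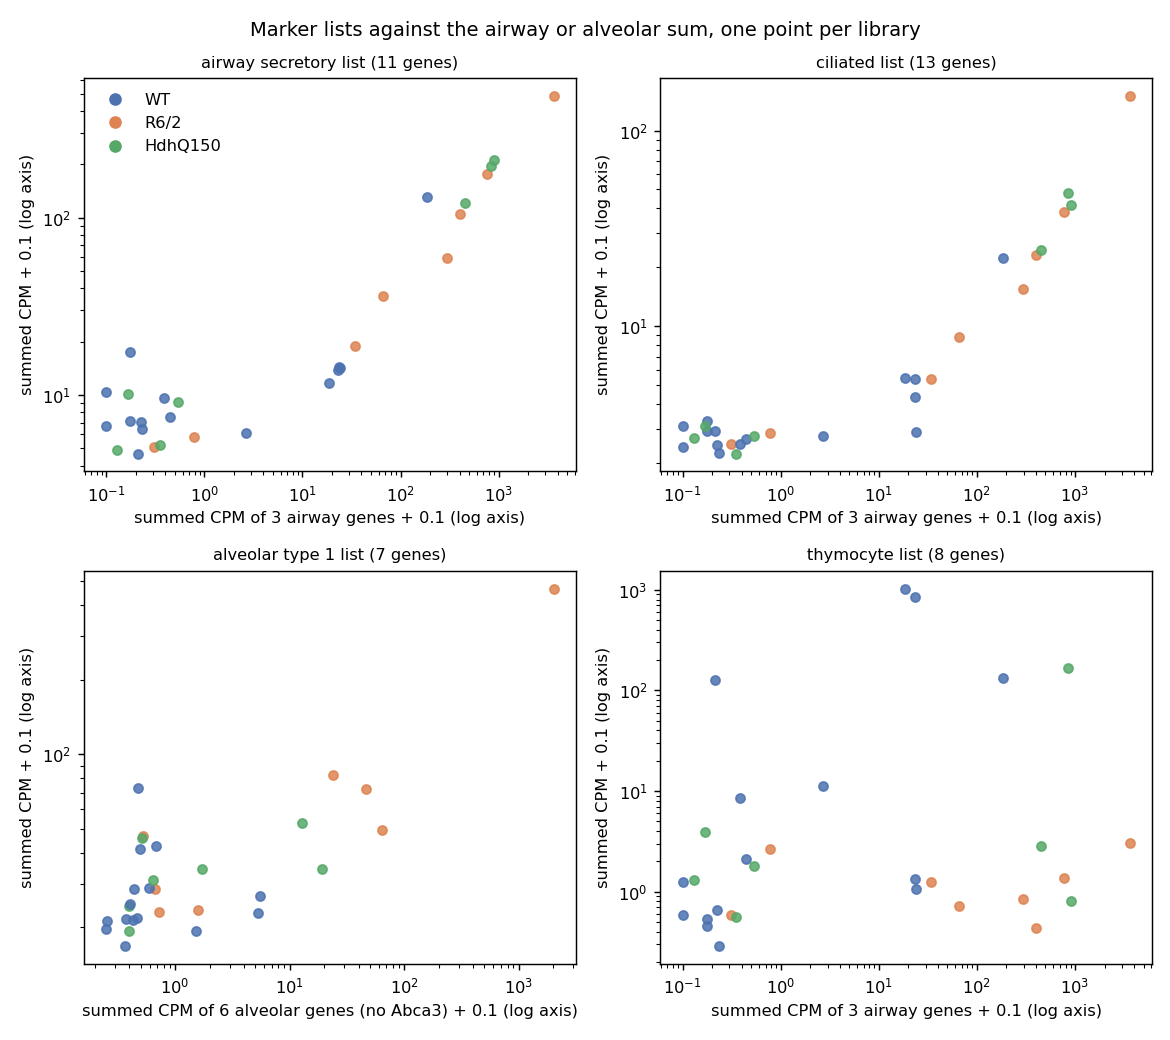
Summed CPM of 4 marker lists (vertical) against the airway sum, or against the alveolar sum without Abca3 in the lower left panel (horizontal), all plus 0.1 on log axes, a point for each library coloured by genotype. Airway secretory and ciliated genes rise with the airway sum in its upper range, while thymocyte genes have an r of 0.216 with it. The type 1 list in the lower left panel includes Spock2, which was above 12 CPM in every library.

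The alveolar sum varied with lists of the distal lung and also with those of the airways. For the sum of all 7 genes, r was 0.931 with lung mesenchyme genes, 0.874 with alveolar type 1 genes, 0.865 with alveolar type 2 genes, 0.749 with ciliated cell genes and 0.671 with airway secretory genes. By rank the order was different, and rho was highest with ciliated cell genes at 0.838 and with epithelium at 0.776, before lung mesenchyme at 0.746, type 1 at 0.736 and type 2 at 0.721. Without R6/2 mice 7 and 8, r was 0.729 for type 1, 0.743 for type 2 and 0.653 for mesenchyme genes. Without Abca3 in the sum, r was 0.888 with type 2, 0.884 with ciliated, 0.856 with airway secretory, 0.810 with mesenchyme and 0.764 with type 1 genes. The type 1 sum had a median of 28.4 CPM, and Spock2 alone had a median of 22.2 CPM. In WT mouse 11 Spock2 was 68.7 of the 72.8 CPM of type 1 genes, beside an alveolar sum without Abca3 of 0.378 CPM. Wnt2 had a median of 0.623 CPM, beside 0.999 CPM for the mesenchyme sum. R6/2 mouse 8 had the most of Ager, a receptor of type 1 cells, at 229 CPM against 5.58 CPM in the next library, R6/2 mouse 5. It also led in Cxcl15, a lung chemokine, at 80.2 CPM, in Sftpd at 63.9 CPM and in Nkx2-1, the lung transcription factor, at 21.7 CPM against at most 0.812 CPM elsewhere. The mesenchymal factors Tbx4 and Foxf1 were 12.7 and 12.6 CPM in this library and under 1 CPM in all others. Lyz1 was 80.4 CPM and Chil3 61.3 CPM in it, and both have close relatives that could share reads.

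Of the 7 alveolar macrophage genes, 6 were highest in R6/2 mouse 8, among them Chil3 and, at 4.84 CPM, Ear2. The exception was Marco, a scavenger receptor, at 13.8 CPM in HdhQ150 mouse 31 and 7.89 CPM in WT mouse 12, against 2.43 CPM in R6/2 mouse 8. The macrophage list had r of 0.633 and rho of 0.521 with the airway sum, and r of 0.702 and rho of 0.731 with the alveolar sum. All 13 ciliated cell genes, all 7 type 1 genes, 8 of 9 type 2 genes and 3 of 11 airway secretory genes were highest in R6/2 mouse 8. The type 2 exception was Napsa, a protease, at 37.3 CPM in HdhQ150 mouse 31 and 24.2 CPM in R6/2 mouse 8.

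Lists of other tissues were set against the same sums. For the 8 thymocyte genes r with the airway sum was 0.216 and rho 0.270. The libraries with most thymocyte transcripts, WT mice 1 and 2, had airway sums of 18.3 and 23.1 CPM, and WT mouse 13 only 0.113 CPM. The ventricular cardiomyocyte list had r of -0.299 and rho of -0.290 with the airway sum, and r of -0.458 and rho of -0.385 with the alveolar sum. Higher values with the airway sum were those of epithelium (r 0.723), basal and squamous epithelium (0.653), mesothelium (0.602), B cell (0.532), cartilage (0.531) and brown fat (0.450).

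Genes whose pattern was most like that of the members were sought among 17333 genes with a mean of at least 0.1 CPM that are no members, by Spearman rho over 30 libraries. With the airway sum the leading 8 were Drc7 (0.929), Scgb3a1 (0.929), Spag16 (0.924), Tmem125 (0.917), Sec14l3 (0.914), 2310007B03Rik (0.899), Cfap65 (0.897) and Gabrp (0.894). Drc7, Spag16 and Cfap65 are parts of the motile cilium. With the alveolar sum of 7 genes the leading 8 were Ak8 (0.888), Wwc1 (0.866), Ccdc39 (0.859), Cgn (0.839), Adam8 (0.837), Prss8 (0.828), Tcp11 (0.826) and Nme9 (0.824). With the alveolar sum without Abca3, Sftpd and Cxcl15 led with 0.861 each. The medians of the 16 genes named first were between 0 and 1.64 CPM, so that their ranks rest on few counts in many libraries.

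The comparisons of genotype give the same genes by group. A gene was called at an adjusted p under 0.1 by edgeR's quasi-likelihood test and a fold change of at least 1.3. At 15 weeks, 14.3% of 15463 genes tested were called (7.82% higher and 6.44% lower in R6/2), and 5 of the 10 members passed the filter on low counts. Of these, 3 were among the genes called higher in R6/2, a count from which nothing is read because the members were chosen on these values. DESeq2 called 2 of the 5 (and 19.6% of all genes), and limma called 0 under either offset (6.38% and 7.69% of all genes). The log2 fold changes were 6.997 ± 2.05 (SE) for Scgb1a1, 4.95 ± 1.56 for Scgb3a2, 6.17 ± 1.62 for Chil1, 3.20 ± 1.60 for Bpifa1 and 0.37 ± 0.298 for Abca3. Group means with an SD are of CPM scaled by TMM factors, unlike the levels of single libraries. The mean of Scgb1a1 so scaled was 1034 ± 1495 CPM (SD, n = 4) in R6/2 and 8.03 ± 6.76 CPM (n = 4) in WT. The SD in R6/2 thus exceeded the mean. Sftpc and Cldn18 were the 2 of 10 members whose groups did not overlap, beside 12.4% of the 25085 genes with a count at this age, and both fell below the filter. This rested on few counts in R6/2 mouse 6. It had 3 counts of Sftpc, against 2 in WT mice 1 and 2, and 1 count of Cldn18, against 0 in WT. Such counts do not tell mouse 6 apart from the WT libraries.

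The count of members at 15 weeks depended on which libraries were in the fit. By edgeR 0 of 10 members tested were called without WT mouse 1 (and 5.78% of all genes), WT mouse 2 (4.30%) or both (6.69%), and 0 of 5 without R6/2 mouse 7 (4.27%). There was 1 of 5 without R6/2 mouse 5 (4.20%) or mouse 8 (6.25%). All 10 members passed the filter without WT mouse 3, WT mouse 4 or R6/2 mouse 6, and 5, 7 and 8 of them were called, beside 15.7%, 21.3% and 8.09% of all genes. Without R6/2 mouse 8 the log2 fold change of Chil1 was 3.31 in place of 6.17 and that of Abca3 was -0.07 in place of 0.37. R6/2 mouse 6 had an airway sum of 0.678 CPM and an alveolar sum without Abca3 of 0.424 CPM, within the range of WT libraries of its age.

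At 4 weeks, 0% of 15478 genes were called, and none of the 5 members tested. The groups of 0 members did not overlap, beside 1.85% of genes with a count. By edgeR 513 genes, and by DESeq2 657 genes, had an unadjusted p under 0.05, and DESeq2 called 35 genes, none of them a member. The log2 fold change of Scgb1a1 was 1.22 ± 2.09, of Scgb3a2 0.96 ± 1.89, of Bpifa1 3.55 ± 1.78, of Chil1 -0.51 ± 0.949 and of Abca3 0.01 ± 0.0996. These values moved with single libraries. Without WT mouse 12 the value of Scgb1a1 was 7.11, and without R6/2 mouse 9 it was -0.88.

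At 8 months, 0% of 15173 genes were called, and Abca3 was the only member that passed the filter, with 0.03 ± 0.0743. The TMM-scaled mean of Scgb1a1 was 138 ± 240 CPM (SD, n = 3) in HdhQ150 against 0.0527 ± 0.0375 CPM (n = 4) in WT. All but a trace of the HdhQ150 mean came from mouse 24. The groups of 0 members did not overlap, beside 5.99% of genes with a count. By edgeR 1124 genes had an unadjusted p under 0.05, and DESeq2 called 64.

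At 22 months, 0% of 15569 genes were called, and none of the 6 members tested. The log2 fold changes were 4.34 ± 2.64 for Scgb1a1, 4.60 ± 2.33 for Scgb3a2, 6.22 ± 2.79 for Bpifa1, 1.74 ± 1.06 for Sftpb, 2.26 ± 0.902 for Chil1 and 0.27 ± 0.102 for Abca3. Chil1 and Abca3 were the 2 of 10 members whose groups did not overlap, beside 13.5% of the 24690 genes with a count at this age. For Chil1 this rested on few counts, with 14 and 13 in HdhQ150 mice 29 and 30 against 11 in WT mouse 28. Without WT mouse 26, which had 24.0 CPM of summed airway genes against 0.345 and 0 CPM in the other WT libraries of that age, the value of Scgb1a1 was 10.07, and without HdhQ150 mouse 31 it was 3.23 while only 3 members passed the filter. By edgeR 2591 genes had an unadjusted p under 0.05, and DESeq2 called 659, with no member among them.

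**Figure D5:**
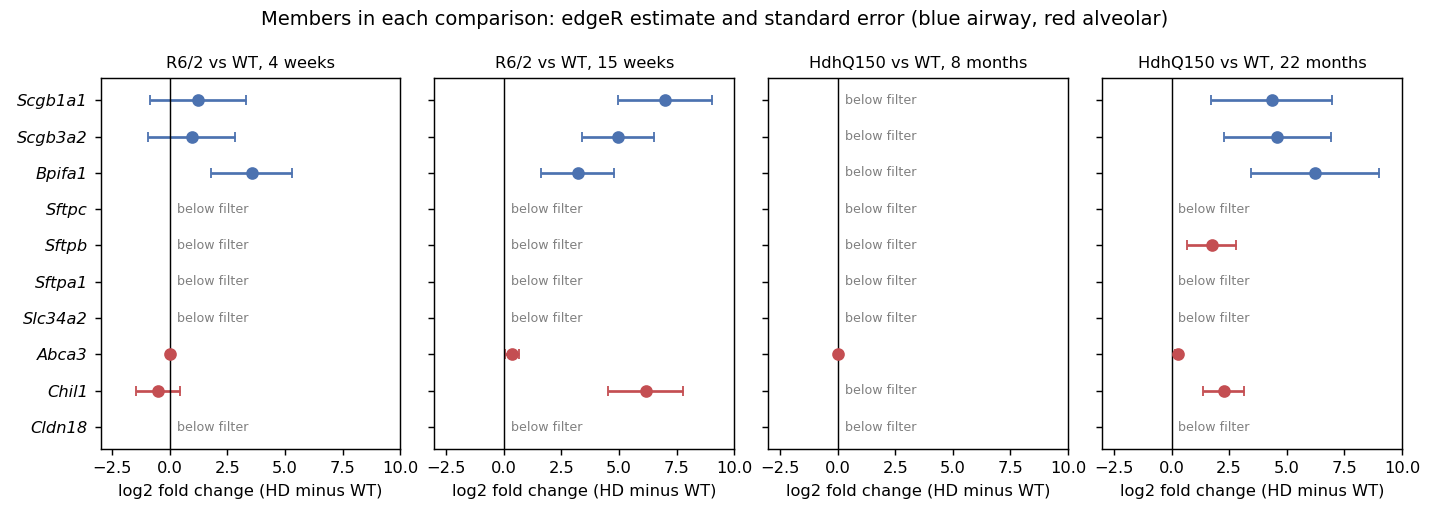
Log2 fold change of each gene in the 4 comparisons (HD group minus WT), with the standard error as bars, from edgeR. Genes below the filter on low counts are marked so, and Abca3 stays near 0 while airway genes have the widest bars.

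For the 47 other genes of the airway, ciliated, alveolar and macrophage lists the values did not enter the choice of the members, but the lists were drawn up with earlier results known and vary with the members in the same libraries, so their counts are not independent evidence. At 15 weeks 30 passed the filter, and 12 were called higher in R6/2 hearts and none lower, beside 7.82% and 6.44% of all genes. Their median log2 fold change was 2.69, beside -0.02 over all genes tested. The filter bears on this, since only 12 of the 30 reached its level in every WT library, and 4 of the 12 genes called did so (Lypd2, Muc1, Lyz1 and Spock2), while the other 8 fell short of it in at least 1 WT library. With no filter 17 of the 47 were called, beside 1755 of 25085 genes in all, and the median was 3.66. The 12 were Scgb3a1, Cyp2f2, Muc5b, Lypd2 and Pigr of the airway secretory list, Foxj1, Tekt4 and Sec14l3 of the ciliated list, Muc1, Lyz1, Spock2 and Chil3. Tekt4, of the ciliary axoneme, was among the 8 called genes short of the filter level in WT, and passed the filter through its R6/2 libraries. It rose by 2.69 ± 0.493 (SE, edgeR adjusted p = 0.0245), from 0.156 ± 0.0935 to 1.01 ± 0.423 TMM-scaled CPM (SD, n = 4 each). Spock2, a matrix proteoglycan that was above 12 CPM in every library, rose by 1.22 ± 0.267 (edgeR adjusted p = 0.0388). R6/2 mouse 6, which had few airway transcripts, had 41.9 CPM of Spock2, against 17.1 to 31.8 CPM in WT. It had 7.01 CPM of Lyz1, against 1.01 to 4.17 CPM in WT. Lypd2 and Muc1, at 0.466 and 0.339 CPM in mouse 6, were below the WT libraries. What part of the rise of Spock2 and Lyz1 goes with lung transcripts was not tested. Scgb3a1, also among the 8 with 0.131 CPM in WT mouse 3, rose by 4.73 ± 1.26 (edgeR adjusted p = 0.0607). Ager had a log2 fold change of 5.37 ± 1.86 and did not pass (edgeR adjusted p = 0.106).

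This count too depended on single libraries. It was 1 without R6/2 mouse 5, 2 without R6/2 mouse 7 or mouse 8, 27 without R6/2 mouse 6, 3 without WT mouse 1, 2 without WT mouse 2 and 6 without WT mouse 3, and without WT mice 1 and 2 together 1 gene was higher and 1 lower. Of the thymocyte list 6 of 6 tested genes were called lower in R6/2 at this age, beside 6.44% of all genes. Their high levels were those of WT mice 1 and 2. Summed levels were 1019, 852, 8.43 and 1.24 CPM in WT mice 1 to 4, against 0.749 to 2.96 CPM in R6/2. The part of thymocyte transcripts in the result was not tested. At 4 weeks none of 26 tested genes was called, 0 had an unadjusted p under 0.05 by edgeR, and DESeq2 called 0. At 8 months none of 17 was called by edgeR, with 5 at an unadjusted p under 0.05 and 1 called by DESeq2. At 22 months none of 23 was called by edgeR, with 8 at an unadjusted p under 0.05 and 6 called by DESeq2. Among these 8 were Marco, with 4.07 ± 0.863 (edgeR adjusted p = 0.291), and Muc1, with 1.98 ± 0.551 (edgeR adjusted p = 0.291).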

How the data were processed

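Total RNA of 30 whole mouse hearts was sequenced as paired-end reads on an Illumina instrument. Per the study's methods, the alignment by the authors used OSA, within Omicsoft, and mouse genome version B37, and tool versions are not given in the sources used here. The authors deposited expected counts per gene, not normalised (70.9% of non-zero values are whole within 1e-09), which were rounded here where whole counts had been planned. The deposited FPKM values were computed by the authors per kilobase of gene and library size. A deposited table describing the libraries was not used, and no column of values (0) lacked a group. Columns were joined to groups by age and genotype in the headings, and libraries were unpaired. No libraries of a group were duplicates (lowest chi-square per degree of freedom 5.73, WT mice 17 and 19).

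CPM are counts per 1000000 of a library's total (median 41324269). For group means with an SD, and for whether groups overlapped, CPM were scaled by TMM factors of the 2 groups compared. Groups were compared with edgeR 4.0.16 in R 4.3.3 (TMM, filterByExpr defaults, quasi-likelihood, Benjamini-Hochberg adjustment over all genes), on the 2 groups compared only. The SE of a log2 fold change is its size over the root of the test's F. Correlations used scipy 1.17.1 with 100000 permutations, or exact ones within an age, and figures matplotlib 3.10.9. The genes named are the 10 members, genes of 16 marker lists, those of highest summed CPM being preferred, and the 8 genes most like each sum. Members, lists and tests were chosen with earlier results of these data known. Members were left out of the lists compared with them. Alternatives were DESeq2 1.42.0, RLE factors, no filter, no fold limit, limma 3.58.1 on log2(FPKM + 1) and log2(FPKM + 0.1), 1 fit of all libraries, other scales and left-out libraries. The alveolar sum without Abca3, the split at the step in the airway sum and the left-out libraries of the airway and alveolar correlation were added after seeing the data.

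On simulated counts with 100 genes changed 4-fold and 100 changed 2-fold at 15 weeks (15463 genes), edgeR recovered 83 and 44 with 14 false calls. At 4 weeks (15478 genes) it recovered 81 and 41 with 7, at 8 months (15173 genes) 94 and 78 with 16, and at 22 months (15569 genes) 87 and 53 with 18.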

Additional observations from a re-analysis of the deposited data

Results flagged for a closer look

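Within groups of 4 libraries, a library was marked where its gap to the nearest of the others was above Dixon's 95% critical value as a share of the group's range. Of 76 group and gene combinations 44 were marked; chance marks about 1 in 20 in values not chosen beforehand, but the members were chosen on these same values and vary together, so many marks were to be had and their number is no finding. Some marks rest on 1 or 2 counts. No member moved in opposite directions at 2 ages with groups that did not overlap.

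R6/2 mouse 8 stood above the other R6/2 hearts of 15 weeks in Scgb1a1 (3510 CPM, next 564), Sftpc (1330 CPM), Sftpb (198 CPM), Sftpa1 (248 CPM), Slc34a2 (142 CPM), Abca3 (67.0 CPM), Chil1 (66.4 CPM) and Cldn18 (33.4 CPM), and in the alveolar sums with Abca3 (2090 CPM) and without it (2020 CPM). Scgb3a2 and Bpifa1 were not marked in it.

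R6/2 mouse 9 stood above the other R6/2 hearts of 4 weeks in Scgb1a1 (270 CPM), Sftpc (13.1 CPM), Sftpb (2.04 CPM), Sftpa1 (4.89 CPM), Slc34a2 (2.20 CPM) and Cldn18 (0.388 CPM), in the airway sum (401 CPM), and in the alveolar sums with Abca3 (54.1 CPM) and without it (24.0 CPM). WT mouse 12 stood above the other WT hearts of 4 weeks in Scgb1a1 (154 CPM), Scgb3a2 (19.4 CPM), Bpifa1 (12.1 CPM), Sftpc (0.0499 CPM, 2 counts), Sftpa1 (1.65 CPM), Slc34a2 (0.349 CPM) and Chil1 (3.05 CPM), in the airway sum (186 CPM) and in the alveolar sum without Abca3 (5.44 CPM).

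WT mouse 20 stood above the other WT hearts of 8 months in Sftpc (3.53 CPM), Sftpb (0.534 CPM), Sftpa1 (0.477 CPM), Slc34a2 (0.305 CPM), Cldn18 (0.153 CPM) and the alveolar sum without Abca3 (5.23 CPM), with no airway gene above 0 in it. HdhQ150 mouse 31 stood above the other HdhQ150 hearts of 22 months in Sftpc (5.26 CPM), Sftpb (1.78 CPM), Slc34a2 (0.658 CPM), Abca3 (39.9 CPM), Chil1 (3.20 CPM) and Cldn18 (0.0877 CPM), and in the alveolar sums with Abca3 (52.5 CPM) and without it (12.6 CPM).

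For Scgb3a2, WT mouse 3 was below the other WT hearts of 15 weeks (0 CPM, next 0.892) and WT mouse 19 was above those of 8 months (0.0252 CPM against 0 in the others), a single count.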

How the results depend on the processing

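At 15 weeks the count of genes called, 2205 in the report, was 987 with limma on log2(FPKM + 1), 1189 with an offset of 0.1, 3588 in 1 fit of all 30 libraries, 1073 without WT mice 1 and 2, and 659 to 3376 with single libraries left out. At 4 weeks DESeq2 called 35 genes and limma 1 under either offset, against 0, which single left-out libraries kept at 0. At 8 months DESeq2 called 64, the fit of all libraries 1, and left-out libraries gave 0 to 3. At 22 months the counts were 659 with DESeq2, 2 with limma at an offset of 0.1, 1316 in the fit of all libraries and 0 to 6 with left-out libraries. The other lung genes called at 15 weeks, 12 in the report, were 2 with limma under either offset, 29 in the fit of all libraries, 2 without WT mice 1 and 2, and 1 to 27 with left-out libraries. At 8 months DESeq2 called 1 of them, and at 22 months DESeq2 called 6 and the fit of all libraries 1. The cause of these changes was not tested, and fewer libraries were in the fits that left some out.

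Of the 32 relations of lists with sums, 21 had an adjusted permutation p under 0.05 by r, a count that describes relations seen before and is no test of them. With fewer libraries there were 0 within 4 weeks (also without Abca3), 10 within 15 weeks (also 10 without Abca3), 4 within 8 months (0 without Abca3), 13 within 22 months (3 without Abca3), 1 below the step in the airway sum (0 without Abca3), and 12 above it without Abca3. The rho of the airway with the alveolar sum, 0.536, was 0.27 with TMM factors, 0.632 in FPKM, 0.727 without Abca3, and 0.487 to 0.589 with each library left out.

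Of the alternative values of members' log2 fold changes, 208 moved by less than 1 standard error and 25 by more. No paired analysis was possible because the columns carry none of the labels' replicate numbers.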

Other observations

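Some genes of the lung lists had a level in all hearts. Scgb1c1, a secretoglobin of the airway secretory list, was between 1.90 and 16.2 CPM in all libraries and highest in WT mouse 11, whose airway sum was 0.0757 CPM. At 8 months its TMM-scaled level in HdhQ150 hearts was 3.40 ± 0.521 CPM (SD, n = 3) against 6.18 ± 1.36 CPM (n = 4) in WT. The difference did not pass (edgeR adjusted p = 0.481). Wnt2 of the mesenchyme list stood between 0.347 and 2.64 CPM.

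WT mouse 12 led in Reg3g (36.7 CPM) and Muc5ac (2.72 CPM), and in Tff2, for which the next library was HdhQ150 mouse 24 at 0.822 CPM. HdhQ150 mouse 24 also had 411 CPM of the 3 brown fat genes, against a median of 38.2 CPM.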
